A study of Mus musculus with 12 samples.

Results

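The response of naive CD8 T cells to 6 h of CD3 stimulation under isotype control was taken from 6 of the 12 libraries of a mouse study of LAIR-1, an inhibitory receptor for collagen. The 6 libraries were chosen by the antibodies in the well. In the stimulated group (3 libraries) the wells held 2.5 µg/ml of immobilized anti-CD3ε (clone 145-2C11) and an isotype control in place of the anti-LAIR-1 antibody. In the unstimulated group (3 libraries) isotype controls stood in for both antibodies. Both groups shared everything else that the labels and methods give: wild type mice, spleen cells sorted by surface markers as naive CD8 T cells (among them TCRβ+, CD8+ and CD44-), 100000 cells in each well, and 6 h of culture. The methods name adult C57BL/6N animals for the study in general. Each of 3 mice gave 1 library to each group, so that stimulated and unstimulated wells were compared within a mouse. The other 6 libraries, from wells of the same mice with anti-LAIR-1, served only to ask whether a response differed there. Immobilized anti-CD3 engages the receptor of every T cell whatever its specificity, and the labels list no antibody to a costimulatory receptor beside it.

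The CD3 chains carry the signal of the T cell receptor into the cell, where the kinases LCK and ZAP70 pass it on to calcium and NFAT, to the MAP kinases and AP-1, to NF-κB, and to PI3K and mTOR. Naive CD8 T cells are small resting cells that circulate between blood and lymph nodes with the help of CCR7 and the sphingosine-1-phosphate receptor S1PR1, and live on interleukin-7. Once stimulated, they switch on early transcription factors, secrete cytokines and chemokines, raise the machinery of protein synthesis and metabolism, and only later replicate their DNA and divide.

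RNA was measured by an adapted CEL-seq protocol, which reads each transcript next to its 3′ end, and the values are counts for 14323 gene symbols. Library totals were 2957929, 2304214 and 1781218 counts for mice 1, 2 and 3 without anti-CD3, and 3478294, 4883760 and 6555730 with it. Each stimulated library was therefore deeper than each unstimulated one, and 3 counts stood for 1.01, 1.24 and 1.64 CPM (counts per 1000000 counts) without anti-CD3 and for 0.896, 0.629 and 0.477 with it. Levels are given as CPM after normalization by the TMM method, always in the order of mice 1, 2 and 3. Since a transcript is read at 1 end, its count does not grow with its length, and CPM were not divided by length. Levels of different genes are compared on this scale alone, which still carries how well each 3′ end is captured. CPM are shares of a library: a gene that keeps its number of molecules falls in CPM when total RNA grows, and fewer cells of a kind cannot be told apart from less RNA per cell.

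The sorted identity was checked against markers. Without anti-CD3, the 11 markers of naive CD8 T cells that had counts added up to 7203, 7764 and 7000.4 CPM. With anti-CD3 the same sum was 2263, 2321 and 2456 CPM. Summed levels of B cell markers were 10.7, 8.69 and 14.2 CPM without anti-CD3 and 8.96, 8.38 and 8.91 with it. Their most abundant gene was Cd79b without anti-CD3, which was called lower with -2.23 (SE 0.58), and Cd74 with it, which was not called. Markers of monocytes or macrophages, neutrophils, dendritic cells and platelets each summed to at most 4.18 CPM in any of the 6 libraries, and Emr1, Elane, Flt3 and Ppbp had no count in any. Cd4 averaged 0.734 CPM without anti-CD3 and 0 with it. Of the NK cell list, which summed to 435, 481 and 467 CPM without and 72.3, 70.0 and 94.0 with anti-CD3, nearly all came from Klrd1, which CD8 T cells also express, while Klrb1b and Ncam1 had no count. The haemoglobin gene Beta-s had 0, 96.0 and 17.4 CPM without anti-CD3 and 0, 34.4 and 15.6 with it, highest in both libraries of mouse 2, and was called lower, a call lost without mouse 2 (adjusted p = 0.796) and in edgeR or DESeq2 without the block. Its part in the results was not tested. Markers of CD4 or regulatory T cells summed to 26.5, 41.0 and 51.2 CPM and then 11.6, 10.1 and 13.7, most of it Ikzf2. The list of memory CD8 T cells summed to 444, 491 and 403 CPM and then 389, 368 and 381. Opposite moves stood behind that sum: Itga4 went from 270.0, 315 and 231 CPM to 21.8, 18.9 and 18.1, while Nkg7, Cd44 and Cxcr3 were called higher, with 1.92 (SE 0.13), 3.35 (SE 0.26) and 4.33 (SE 0.36). Nkg7 was the most abundant of the list with anti-CD3.

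The comparison asks which genes change within 6 h when naive CD8 T cells meet CD3 antibody alone. Of 8690 genes with enough counts to be tested, 6138 (70.6%) were called at an adjusted p under 0.05 in edgeR's quasi-likelihood test, paired by mouse. With TMM scaling, which centres the changes, they divided almost evenly, into 3047 called higher (35.1% of genes tested) and 3091 called lower (35.6%). Changes above 2-fold were found in 3848 genes (44.3%), of which 1813 were higher (20.9%) and 2035 lower (23.4%). Under upper quartile scaling 2620 genes were called higher and 3565 lower, and 1482 and 2342 of them by more than 2-fold. The CPM of stimulated and unstimulated libraries did not overlap in 6376 genes (73.4%). Of the called genes, 6048 had 1 direction in all 3 mice and 90 did not. The median change was 1.12, 1.17 and 1.13 on the log2 scale in mice 1, 2 and 3 for the genes called higher, and -1.33, -1.35 and -1.27 for those called lower. Over all genes tested, the median log2 fold change was -0.02 and the median of its size was 0.87. Small changes were the minority among the calls: 553 of them (9.01%) were under 0.5 on the log2 scale.

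Changes of more than 2 on the log2 scale were found in 517 higher and 925 lower genes. In 17 of the genes tested, no unstimulated library had a single count. The most abundant of these were Tnfsf14, Spin4 and Ifng. Tnfsf14, which encodes the TNF family cytokine LIGHT, was at 39.1, 43.2 and 40.9 CPM with anti-CD3 and Spin4, a member of the spindlin family, at 46.3, 44.6 and 31.5. Against a floor of 3 counts over the unstimulated group, this was at least 99.4-fold and at least 94.7-fold higher. Only Nfam1, an activating receptor of immune cells, had counts in every unstimulated library and none with anti-CD3, and was at least 20.6-fold lower. Nfam1 was chosen after its values were seen, as were a few others that spell out a small count. Most remaining names follow a stated rule or the marker lists. Others were named after their values were seen, where a list's members called in the rarer direction are all given. Floors and intervals of this kind cover counting error alone.

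**Figure D1:**
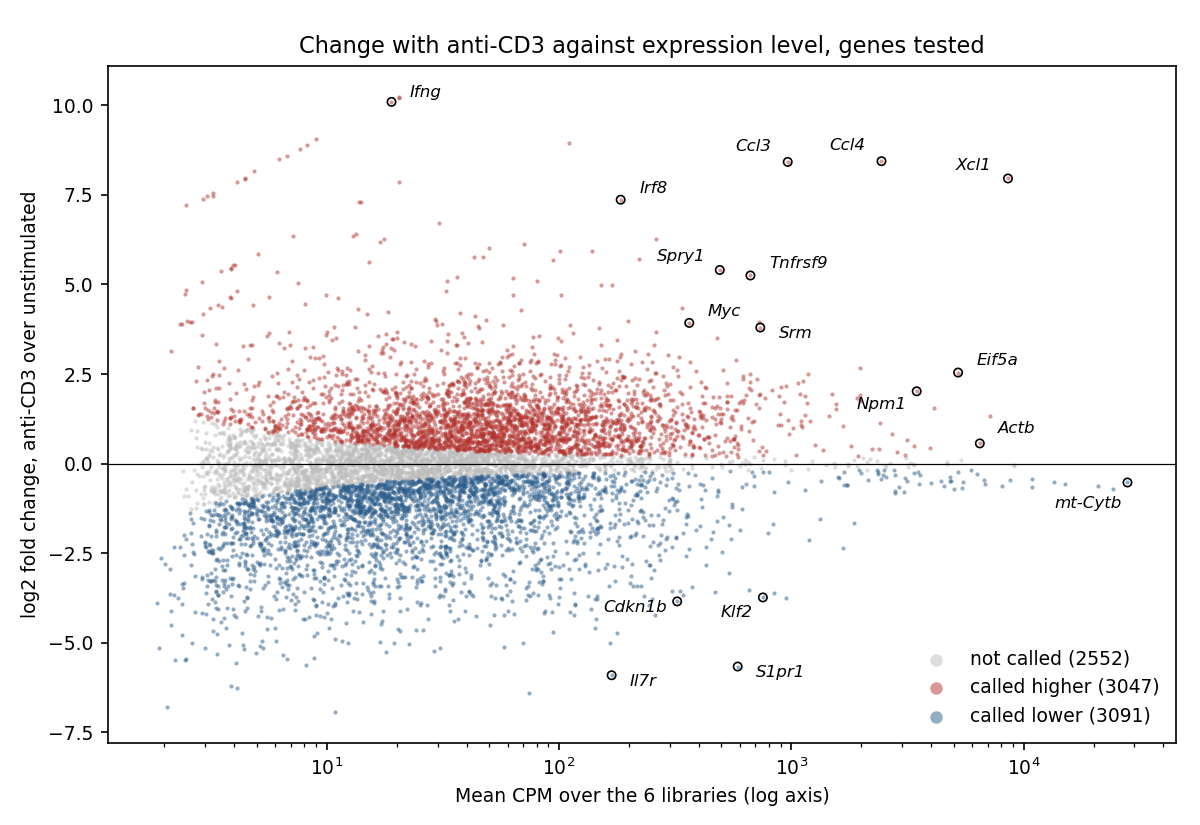
Each point is 1 of 8690 genes tested, placed by its mean CPM over the 6 libraries (log axis) and its log2 fold change with anti-CD3 over unstimulated, with 3047 genes called higher in red, 3091 called lower in blue and the rest in grey. Genes without an unstimulated count, such as Ifng, are drawn at their fitted value, which is no bound. Xcl1, Ccl4 and Ccl3 stand apart at the upper right, S1pr1 and Il7r at the bottom, and the mitochondrial gene mt-Cytb at the far right lies just under 0.

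The response changed character with expression level. Among genes with a mean under 10 CPM, falls outnumbered rises, with 785 called lower and 293 called higher of 1896. Between 300 and 1000 CPM the reverse held, with 187 called higher and 72 called lower of 287. The median log2 fold change rose over the same classes, from -0.57 under 10 CPM through -0.16, 0.17 and 0.45 to 0.68 at 300 to 1000 CPM. In the top class of 126 genes at 1000 CPM or more it was -0.06. There 57 genes were called lower and 42 higher, and past 2-fold 4 were lower and 27 higher. Precision changed too: the median standard error of a log2 fold change was 0.409 under 10 CPM and 0.0768 at 1000 CPM or more, so that a small change was easier to call among abundant genes.

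**Figure D2:**
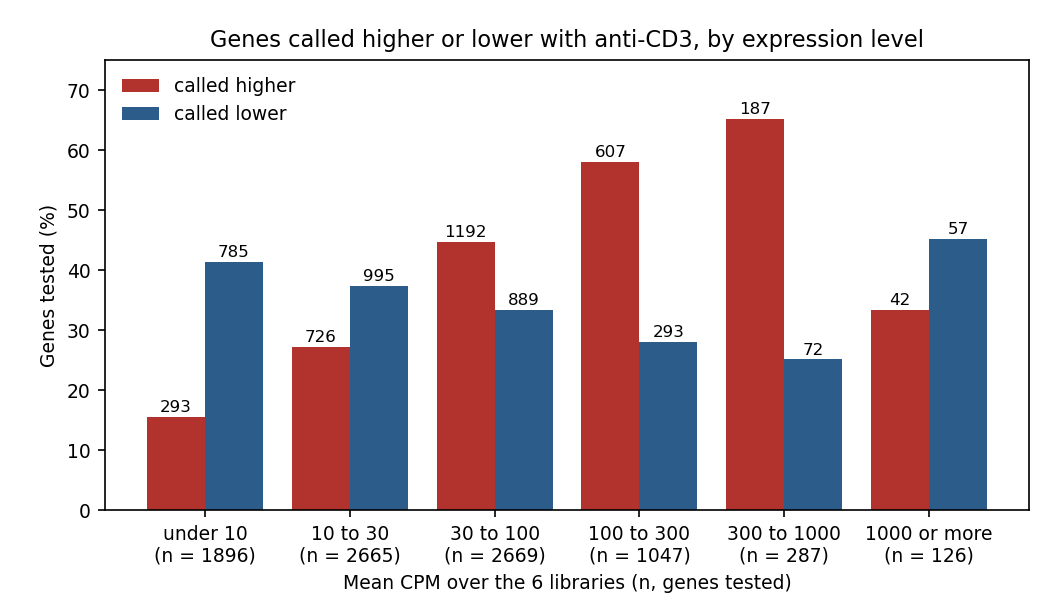
Bars give the share of genes tested that were called higher (red) or lower (blue) with anti-CD3 in 6 classes of mean CPM, with the number of genes above each bar. Genes called lower fall from 41.4% of the class under 10 CPM to 25.1% at 300 to 1000 CPM, while genes called higher rise from 15.5% to 65.2%, and the class of 1000 CPM or more turns back.

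Genes called higher or lower held much of each library, and the direction in which their shares moved follows from how they were called. Those called higher held 22.7%, 22.8% and 23.3% of all counts without anti-CD3 and 50.8%, 52.4% and 50.9% with it. Those called lower held 58.9%, 58.8% and 58.3% before and 32.0%, 30.5% and 32.1% after, and those that fell by more than 2-fold went from 15.4 to 16.7% of counts to 3.62 to 3.76%. The pool also became less concentrated, since 50% of the counts came from 104, 127 and 114 genes without anti-CD3 and from 164, 182 and 171 with it. At equal depth, fewer genes were seen with anti-CD3: with all libraries thinned to the smallest total, 10721, 10792 and 10888 symbols were detected without anti-CD3 and 10271, 10342 and 10304 with it.

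Of the 40 functional lists examined, chemokines gained the most CPM. The 14 chemokines and inflammatory chemokine receptors with counts summed to 148, 145 and 144 CPM without anti-CD3 and to 22803, 26092 and 23222 with it, a ratio of 165. Of 8 members tested, 7 were called higher (87.5%, against 35.1% of all genes tested), all by more than 2-fold. The median log2 fold change was 5.29, against -0.02 over all genes tested. Xcl1, which draws dendritic cells bearing XCR1, lies on chromosome 1 from 164931644 to 164935527 of the GRCm38 (mm10) genome. It was at 69.8, 72.0 and 63.2 CPM without anti-CD3 and at 16784, 18219 and 16186 with it. All 3 stimulated libraries lay far above all 3 unstimulated ones, and in mean CPM of the stimulated cells only mt-Cytb and mt-Atp6 exceeded Xcl1, which was above mt-Atp6 in mouse 2 and under mt-Co2 as well in mouse 3 (log2 fold change 7.96, SE 0.092, adjusted p = 1.8e-37). Ccl4 and Ccl3 encode inflammatory chemokines. Ccl4 went from 12.1, 17.0 and 12.5 CPM to 4016, 5836 and 4772, and Ccl3 from 5.70, 6.21 and 4.36 CPM to 1830.2, 1861 and 2082. Their log2 fold changes were 8.44 (SE 0.12) and 8.42 (SE 0.14), with no overlap between the groups. Cxcr6, the receptor for CXCL16, moved far less, with a log2 fold change of 1.00 (SE 0.14). The member without a call, Ccl5, had 9.06, 6.21 and 2.73 CPM without and 3.88, 2.93 and 4.45 with anti-CD3, and was called lower without mouse 3 (adjusted p = 0.0406).

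Most secreted cytokines were called higher. Of 11 tested, 9 were called higher (81.8%, against 35.1% of all genes tested), each by more than 2-fold. Il16 and Ltb were called lower (18.2%, against 35.6%). The median log2 fold change was 5.09, or 4.81 with the 5 members that had no unstimulated count placed at their bound. Ifng, which encodes interferon-γ, had no count in the unstimulated libraries and 38.2, 37.7 and 38.0 CPM in the stimulated ones. This was at least 91.5-fold higher, and the 3 mice lay within 1 CPM of each other. Il2, the growth factor of activated T cells, went from 0 in each library to 14.9, 17.6 and 17.0 CPM, at least 40.3-fold higher. Tnfsf11, which encodes RANKL, reached 16.1, 13.0 and 16.7 CPM from 0 in each library. Tnf started from 3.02, 6.21 and 4.91 CPM and reached 162, 174 and 133, with no overlap (log2 fold change 5.09, SE 0.20, adjusted p = 6.5e-22). On the common scale of CPM, however, none of these came near Mif, which encodes macrophage migration inhibitory factor. Mif went from 493, 529 and 577 CPM to 3368, 3146 and 3731 (log2 fold change 2.68 (SE 0.082)). Il16 fell from 117, 92.7 and 106 CPM to 7.76, 7.34 and 8.11, and Ltb, which encodes lymphotoxin-β, from 231, 235 and 229 to 129, 126 and 106.

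Most of the genes of the cytotoxic granule that were tested were also called higher at this early time. Of 9 tested, 6 were called higher (66.7%, against 35.1% of all genes tested), all by more than 2-fold. Another 1 was called lower (11.1%, against 35.6%), and the median log2 fold change was 1.92. Gzmb, which encodes granzyme B, had 1 count in the 3 unstimulated libraries together and stood at 40.6, 30.2 and 52.2 CPM with anti-CD3. The ratio of the pooled levels was 305 (95% interval 54.6 to 12070.0), wide because it rests on that single count. Srgn, the proteoglycan that packs granule contents, was abundant already, at 4243, 3666 and 4425 CPM, and reached 10465, 9693 and 10572 (log2 fold change 1.32 (SE 0.068)). Serpinb6b, a serpin of the group that inhibits granule proteases, had a log2 fold change of 3.87 (SE 0.15). Ctsw, a cathepsin of cytotoxic lymphocytes, fell, with -0.73 (SE 0.17), and Lamp1, a membrane protein of lysosomes and granules, was not called, with 227, 204 and 221 CPM without and 201, 213 and 212 with anti-CD3.

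**Figure D3:**
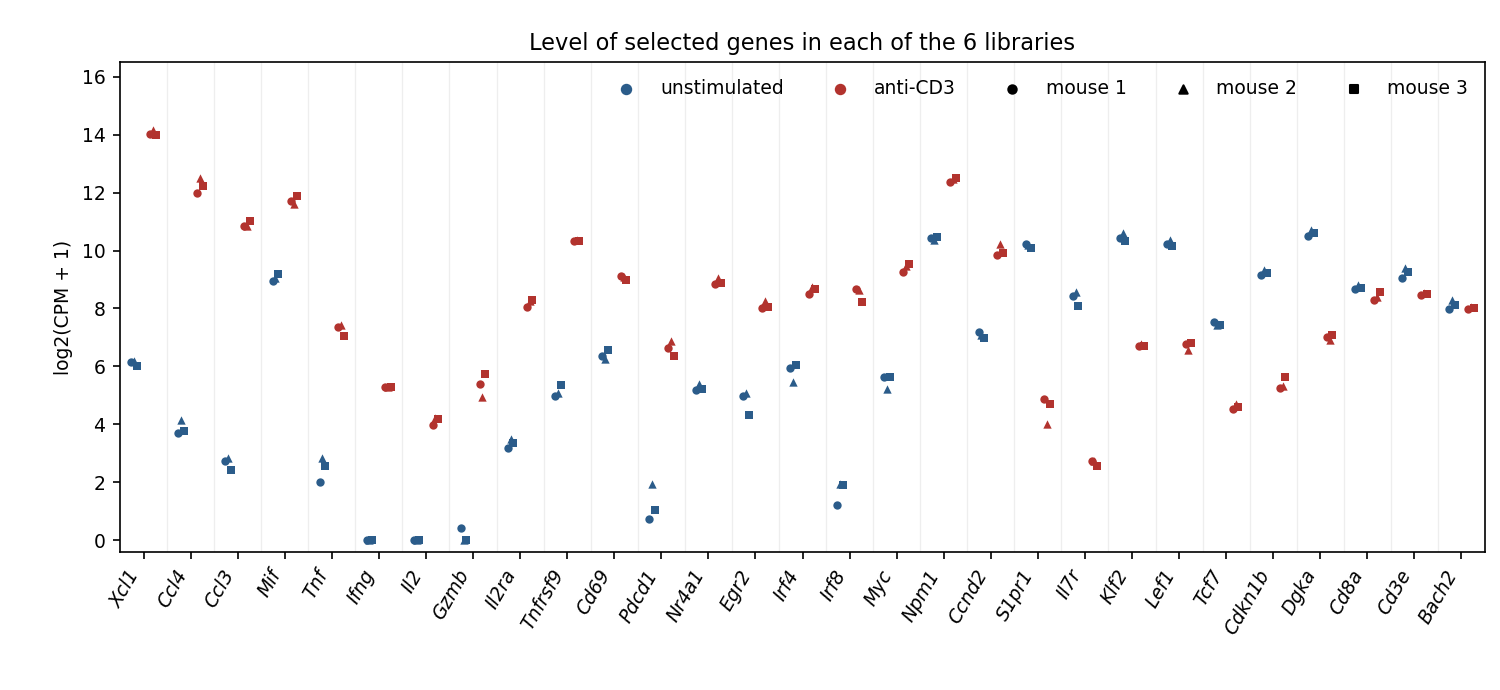
Points give log2(CPM + 1) of 29 genes in each of the 6 libraries, unstimulated in blue and anti-CD3 in red, with a circle, triangle and square for mice 1, 2 and 3. Red and blue points are apart for all genes drawn but Bach2, in which they overlap, and Ifng and Il2 are at 0 in each unstimulated library.

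The early transcription factors of receptor signalling were mostly called higher at 6 h. Of 16 immediate early factors tested, 13 were called higher (81.2%, against 35.1% of all genes tested), 9 by more than 2-fold. A single 1 was called lower (6.25%, against 35.6%), and the median log2 fold change was 1.41. Nr4a1, a nuclear receptor widely used as a gauge of receptor signal strength, went from 35.6, 41.0 and 36.5 CPM to 454, 533 and 467. The groups were far apart in every mouse (log2 fold change 3.68, SE 0.12, adjusted p = 3.2e-24). Its relative Nr4a2 changed more, by 4.70 (SE 0.18). Egr2, which restrains T cell responses, went from 30.9, 33.1 and 19.1 CPM to 256, 306 and 264, and Egr1 had a log2 fold change of 2.00 (SE 0.17). The AP-1 member Junb, at 115, 142 and 128 CPM before and 185, 242 and 199 after, changed by only 0.70 (SE 0.11). Btg2, an antiproliferative gene, was the member that fell, with -1.02 (SE 0.13).

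Factors that steer effector fate were more often higher than lower. Of 13 tested, 8 were called higher (61.5%, against 35.1% of all genes tested) and 4 lower (30.8%, against 35.6%), 7 and 4 of them by more than 2-fold, and the median was 1.31 on the log2 scale. Irf8 showed the widest swing of those with counts in every library: it was at 1.34, 2.90 and 2.73 CPM without anti-CD3 and at 403, 394 and 301 with it (log2 fold change 7.37, SE 0.20, adjusted p = 2.7e-26). Irf4, which scales with the strength of receptor signals, went from 60.4, 43.5 and 64.9 CPM to 365, 429.6 and 404, so that the stimulated libraries were all above the unstimulated ones. Tbx21, which encodes T-bet, the regulator of interferon-γ and cytotoxic programmes, had no unstimulated count and 6.87, 6.29 and 6.36 CPM with anti-CD3, at least 15.6-fold higher. Zeb2, a transcriptional repressor of terminal effector cells, had 1 unstimulated count and 22.1, 32.3 and 29.3 CPM with anti-CD3, a ratio of 207 (95% interval 36.9 to 8187). Rbpj, the DNA-binding partner of Notch, had a log2 fold change of 2.15 (SE 0.13). The 4 that fell were Stat5b, a transducer of interleukin-2 signals, with -1.73 (SE 0.15), Batf (-1.56), Id2 (-1.49) and Tox (-1.19).

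Brakes on receptor signalling were more often higher than lower. Of 24 feedback inhibitors tested, 14 were called higher (58.3%, against 35.1% of all genes tested), 10 by more than 2-fold, and 8 lower (33.3%, against 35.6%), 5 by more than 2-fold. Spry1, an inhibitor of the RAS and MAP kinase route, went from 18.8, 26.5 and 23.4 CPM to 992, 936 and 954 (log2 fold change 5.40, SE 0.13, adjusted p = 5.6e-28). The stimulated libraries stood together and far above the rest. Dusp2, a phosphatase of MAP kinases, had a log2 fold change of 1.66 (SE 0.088), and Cish, an inhibitor of cytokine signalling, went from 4.03, 6.62 and 7.09 CPM to 72.9, 77.3 and 101. The opposite was seen for Dgka, which removes the messenger diacylglycerol. Dgka was at 1445, 1677 and 1567 CPM without anti-CD3 and at 128, 118 and 135 with it, with no overlap (log2 fold change -3.62, SE 0.096, adjusted p = 2.1e-26). It had been the most abundant feedback gene of the resting cells.

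The receptor complex itself was mostly lower. Of 16 genes of the T cell receptor, CD8 and proximal signalling that were tested, 9 were called lower (56.2%, against 35.6% of all genes tested) and 4 higher, with a median of -0.47. Cd3e, which encodes the chain the antibody binds, went from 534, 681 and 612 CPM to 355, 369 and 362 (log2 fold change -0.74, SE 0.091, adjusted p = 7.4e-09). Cd247, which encodes the ζ chain, fell most, by -2.21 (SE 0.13), and Cd8b1 had -1.74 (SE 0.095). Cd8a was nearer to its resting level, with 408, 448 and 420.2 CPM before and 316, 336 and 378 after (log2 fold change -0.31 (SE 0.094)), and its call was lost without mouse 1 (adjusted p = 0.0687), without mouse 2 (adjusted p = 0.0609) and with no filter on low counts (adjusted p = 0.0566). Among adaptors, Lcp2, which encodes SLP-76, rose by 1.87 (SE 0.11). Ptprc, which encodes CD45, was not called, at 821, 758 and 832 CPM and then 854, 909 and 877.

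Of the branches downstream, NFAT and calcium genes leaned lower. Of 22 NF-κB subunits and regulators tested, 8 were called higher and 8 lower, 36.4% each and so near the 35.1% and 35.6% of all genes tested, with a median of 0.19. Rel and Nfkb1, subunits that activated lymphocytes use, had log2 fold changes of 3.68 (SE 0.28) and 2.12 (SE 0.091). Of 20 genes of NFAT and calcium signalling, 11 (55%) were called lower and 4 (20%) higher, with a median of -0.39. Orai1 and Orai2, which both encode pores of the calcium channel fed by store depletion, went opposite ways, with 1.15 (SE 0.099) and -3.41 (SE 0.17). Stim2, a calcium sensor of the same route, and Nfatc1 were 2 of the 4 higher genes, with 1.47 (SE 0.18) and 1.22 (SE 0.11).

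Costimulatory and inhibitory receptors were both more often called higher than lower. Of 18 costimulatory receptors tested, 12 were called higher (66.7%, against 35.1% of all genes tested), 9 by more than 2-fold. Called lower were 3 (16.7%, against 35.6%), and the median was 1.01. Tnfrsf9, which encodes 4-1BB, was at 30.9, 32.7 and 39.8 CPM without anti-CD3 and at 1293, 1328 and 1275 with it (log2 fold change 5.25, SE 0.12, adjusted p = 8.9e-29). The 3 stimulated values lay close together. Cd69, an early activation marker that retains cells in tissue, went from 81.2, 75.8 and 93.2 CPM to 562, 537 and 509. Cd44, whose protein was low on the sorted cells by the gate, had a log2 fold change of 3.35 (SE 0.26). Cd2, an adhesion receptor, fell by 1.25 on the log2 scale, and Cd28 was not called, with 449.8, 465 and 498 CPM and then 485, 430.5 and 415. Of 7 inhibitory receptors tested, 6 were called higher (85.7%, against 35.1% of all genes tested), all by more than 2-fold, with a median of 2.27. Pdcd1, which encodes PD-1, went from 0.671, 2.90 and 1.09 CPM to 98.2, 116 and 81.9, with no overlap (log2 fold change 6.01, SE 0.26, adjusted p = 1.7e-20). Cd160 followed closely with 5.93 (SE 0.18), and Btla had 1.48 (SE 0.14). Ctla4 was the member called lower, at 4.36, 3.73 and 6.54 CPM and then 2.39, 1.47 and 1.59, and its call was lost without mouse 2 (adjusted p = 0.050), without mouse 3 (adjusted p = 0.156) and in DESeq2 with the mouse as a block (adjusted p = 0.0893). Lair1 itself was too low to test, with at most 7 counts in any of the 6 libraries.

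Cytokine receptors fell more often than they rose, but Il2ra and Il15ra rose steeply. Of 19 tested, 10 were called lower (52.6%, against 35.6% of all genes tested), all by more than 2-fold, and 5 higher, with a median of -1.04. Il2ra, the chain that gives the interleukin-2 receptor its high affinity, was at 8.05, 10.3 and 9.27 CPM without anti-CD3 and at 264, 304 and 315 with it. Every stimulated library exceeded every unstimulated one (log2 fold change 4.99, SE 0.15, adjusted p = 1.4e-24). Il7r went the other way, from 344, 377 and 273 CPM to 5.67, 5.66 and 4.93, again with no overlap (log2 fold change -5.91, SE 0.15, adjusted p = 7.0e-27). Il15ra, at 0 in each unstimulated library, reached 11.9, 14.9 and 10.7 CPM, at least 29.8-fold higher. Ifngr1, a chain of the interferon-γ receptor, fell by 3.80 on the log2 scale, and Il10ra, of the interleukin-10 receptor, had 1 count with anti-CD3, a ratio of 0.00837 (95% interval 0.000208 to 0.0484) of the pooled levels. Il2rg, the chain that many of these receptors share, was the most abundant by far and went from 1794, 2161 and 2163 CPM to 2791, 2695 and 2645 (log2 fold change 0.42 (SE 0.079)). Il2rb, which the receptors for interleukin-2 and interleukin-15 share, was not called, at 78.8, 79.5 and 82.3 CPM and then 74.4, 81.5 and 68.5, and its groups overlapped.

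Homing receptors were mostly called lower. Of 17 genes of homing, egress and adhesion that were tested, 13 were called lower (76.5%, against 35.6% of all genes tested), 10 by more than 2-fold. Called higher were 3 (17.6%, against 35.1%), and the median of -3.07 was the lowest of the 40 lists. S1pr1, whose receptor lets T cells leave lymphoid tissue, went from 1195, 1166 and 1097 CPM to 28.4, 15.3 and 25.1 (log2 fold change -5.67, SE 0.13, adjusted p = 3.9e-28). All of its stimulated libraries were far under the unstimulated ones. Selplg, which encodes the ligand of P-selectin, fell by 3.67 on the log2 scale. By contrast Ccr7, the receptor for entry into lymph nodes, fell by only 0.81. The 3 genes called higher were the integrin chains Itgal (1.08), Itgb1 (1.01) and Itgb2 (0.96), of which the first and last together form LFA-1.

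Factors that hold cells naive and quiescent were mostly called lower as well. Of 18 tested, 14 were called lower (77.8%, against 35.6% of all genes tested), 12 by more than 2-fold. Another 3 were called higher (16.7%, against 35.1%), and the median was -1.79. Klf2, which drives the homing receptor genes, went from 1395, 1540.4 and 1277 CPM to 103, 107 and 104. The drop was of like size in each mouse, with log2 differences of -3.76, -3.84 and -3.61. Lef1 and Tcf7, related factors of naive and memory T cells, had log2 fold changes of -3.53 (SE 0.10) and -2.89 (SE 0.13). Pik3ip1, an inhibitor of PI3K, went from 93.9, 93.6 and 104 CPM to 2.69, 5.24 and 4.45 (log2 fold change -4.52, SE 0.20, adjusted p = 1.9e-20). Txnip, which limits glucose uptake, fell by 3.55 on the log2 scale, Foxo1 by 1.76 and Btg1 by 0.59. Bach2, a repressor of effector genes, was the single member without a call, at 251, 309 and 275 CPM before and 253, 266 and 258 after, and its groups overlapped. The members called higher were Tob2 (1.15), Foxp1 (0.53) and Slfn2 (0.26). The call of Slfn2 was lost without mouse 2 (adjusted p = 0.234) and in 5 other alternatives, among them upper quartile scaling (adjusted p = 0.469).

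Myc and the genes of ribosome biogenesis were higher. Myc, on chromosome 15 from 61985391 to 61990374, drives genes of cell growth and was at 49.3, 36.0 and 48.5 CPM without anti-CD3 and at 608, 703 and 736 with it. Every stimulated library was far above every unstimulated one (log2 fold change 3.93, SE 0.12, adjusted p = 1.4e-24). Of 9 members of its network tested, 5 were called higher (55.6%) and 3 lower (33.3%, near the 35.6% of all genes tested), and Mxd4, which competes with MYC for its partner MAX, had -3.46 (SE 0.46). The median of 0.41 turned to -0.17 when all genes with a count were kept. Ribosome biogenesis was called higher in each of the 45 members tested, 44 of them by more than 2-fold, against 35.1% higher among all genes tested. Its median was 2.40, and its summed level went from 4202, 3966 and 4348 CPM to 19152, 19842 and 19457, a ratio of 4.67. Npm1 and Ncl, the main nucleolar proteins nucleophosmin and nucleolin, led by level. Npm1 was at 1367, 1323 and 1428 CPM without and 5329.8, 5595 and 5753 with anti-CD3, and Ncl had a log2 fold change of 2.49 (SE 0.099). The range within the list ran from 0.66 for Polr1c, a subunit that RNA polymerases I and III share, to 3.07 for Mrto4, a factor of the large ribosomal subunit.

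Most of the rest of the translation apparatus followed, but not the ribosomal proteins themselves. Of 46 initiation and elongation factors tested, 38 were called higher (82.6%, against 35.1% of all genes tested) and 2 lower (4.35%, against 35.6%). Their median was 1.22. Eif5a, which helps ribosomes through difficult stretches of sequence, was at 1473, 1374 and 1769.7 CPM without anti-CD3 and at 8773, 9204 and 8742 with it. No libraries overlapped, and it ended as one of the most abundant transcripts (log2 fold change 2.54, SE 0.080, adjusted p = 1.8e-24). Aminoacyl-tRNA synthetases, which charge tRNAs with amino acids, were called higher in 21 of 22 (95.5%), with a median of 1.46. So were 8 of 9 amino acid transporters (88.9%), with a median of 1.87. Slc7a5 and Slc3a2, the chains of the large neutral amino acid transporter, had log2 fold changes of 2.90 (SE 0.15) and 1.71 (SE 0.092). Among 74 cytosolic ribosomal proteins tested, 36 were called lower (48.6%, against 35.6% of all genes tested) and 13 higher (17.6%, against 35.1%). Their median was -0.16. The list took 23%, 22.1% and 21.2% of counts without anti-CD3 and 18.4%, 17.6% and 18.3% with it. Rpl15 was among the 13 and went from 3673, 3119.8 and 3339 CPM to 4878, 4266 and 4532 (log2 fold change 0.43 (SE 0.070)). Reads that fit several places were discarded by the authors, and these genes have many near-copies in the genome, so that their levels are less certain.

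Genes for mitochondria were mostly called in opposite directions in the 2 genomes that encode them. Of 13 transcripts encoded in mitochondrial DNA, 11 were called lower (84.6%, against 35.6% of all genes tested). The other 2 were not called, and the median was -0.50. mt-Cytb had the highest mean CPM of all transcripts in either group, although mt-Atp6 was ahead of it in the unstimulated library of mouse 2. It was at 35986, 29133 and 34214 CPM without anti-CD3 and at 23021, 21077 and 24560.3 with it, so that the groups stood apart (log2 fold change -0.53, SE 0.060, adjusted p = 1.2e-09). Of 75 respiratory chain genes in the nucleus, 57 were called higher (76%, against 35.1% of all genes tested) and 4 lower (5.33%, against 35.6%). Their median was 0.65. Of 76 mitochondrial ribosomal proteins, 67 were called higher (88.2%) and 2 lower (2.63%), with a median of 1.03. Cycs, which encodes cytochrome c, was the strongest of the respiratory genes, from 368, 332 and 429 CPM to 1890.2, 1848 and 1855 (log2 fold change 2.32 (SE 0.089)), and Mrps6 led the ribosomal ones with 2.96 (SE 0.14). Ndufa6, a subunit of complex I, and Mrpl34 were lower, with -0.77 (SE 0.10) and -0.79 (SE 0.13).

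Metabolic enzymes of the routes that feed growth were more often called higher than lower. Of 17 genes of glucose uptake and glycolysis tested, 13 were called higher (76.5%, against 35.1% of all genes tested), 12 by more than 2-fold. Only 1 was called lower (5.88%, against 35.6%), and the median was 1.46. The hexokinases, which trap glucose in the cell, switched: Hk2 went from 3.02, 1.66 and 0.545 CPM to 67.5, 81.7 and 64.1 (log2 fold change 5.20, SE 0.27, adjusted p = 2.8e-18), while Hk1 fell from 40.3, 58.0 and 33.8 CPM to 18.5, 17.4 and 16.1. The groups of either gene did not overlap. Ldha, which makes lactate, and Slc2a1, a glucose transporter, had 1.84 (SE 0.087) and 1.46 (SE 0.23), and Gapdh, often used as a control of constant level, had 1.42 (SE 0.14). Of 18 enzymes of serine, one-carbon and polyamine synthesis, 14 were called higher (77.8%) and 2 lower (11.1%), with a median of 1.37. Srm, which makes spermidine, was at 100.3, 76.6 and 122 CPM without anti-CD3 and at 1274, 1425 and 1413 with it. All stimulated values were higher (log2 fold change 3.80, SE 0.11, adjusted p = 2.9e-25). Shmt1 and Shmt2, which pass carbon from serine to folate in the cytosol and the mitochondrion, had 5.67 (SE 0.21) and 2.18 (SE 0.090). Odc1, the first enzyme of polyamine synthesis, had 2.59 (SE 0.10). Among 21 genes of purine and pyrimidine synthesis, 19 were called higher (90.5%) and the other 2 were not called, with a median of 1.63. Ctps, which makes CTP, led with 3.26 (SE 0.18). Cholesterol and fatty acid synthesis moved less evenly, with 12 of 23 called higher (52.2%, against 35.1% of all genes tested). Called lower were 3 (13%, against 35.6%), and the median was 0.64. Fasn, the fatty acid synthase, had 2.81 (SE 0.15) and Elovl6, which lengthens fatty acids, -2.18 (SE 0.40).

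Genes of protein folding, degradation and nuclear traffic were mostly called higher as well. Of 24 chaperones tested, 23 were called higher (95.8%, against 35.1% of all genes tested), 22 by more than 2-fold, with a median of 1.73. Hspd1, the chaperonin of mitochondria, went from 70.1, 75.3 and 76.8 CPM to 567, 613 and 575, with no overlap (log2 fold change 2.98, SE 0.11, adjusted p = 7.2e-23), and Hsp90ab1, the most abundant chaperone, from 2198, 2075 and 2019 CPM to 6516, 6132 and 5769. Of 44 proteasome genes, 40 were called higher (90.9%), with a median of 1.28. Another 3 were called lower (6.82%, against 35.6% of all genes tested), each by more than 2-fold. Those 3 were Psmb8 (-1.38), Psmb9 (-1.23) and Psmb10 (-1.74), which encode the catalytic subunits of the immunoproteasome. Psme3, whose product caps proteasomes in the nucleus, went from 231, 229 and 231 CPM to 989, 1376 and 1206. Of 40 genes of nuclear import and export, 33 were called higher (82.5%) and 1 lower (2.5%), with a median of 1.23. Ran, the GTPase that drives this traffic, had 2.28 (SE 0.091). In the unfolded protein and ATF4 response, 11 of 16 were called higher (68.8%) and 3 lower (18.8%), with a median of 0.97. Hspa5, the chaperone BiP of the endoplasmic reticulum, had 2.84 (SE 0.11), and Atf4 had 1.49 (SE 0.10).

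**Figure D4:**
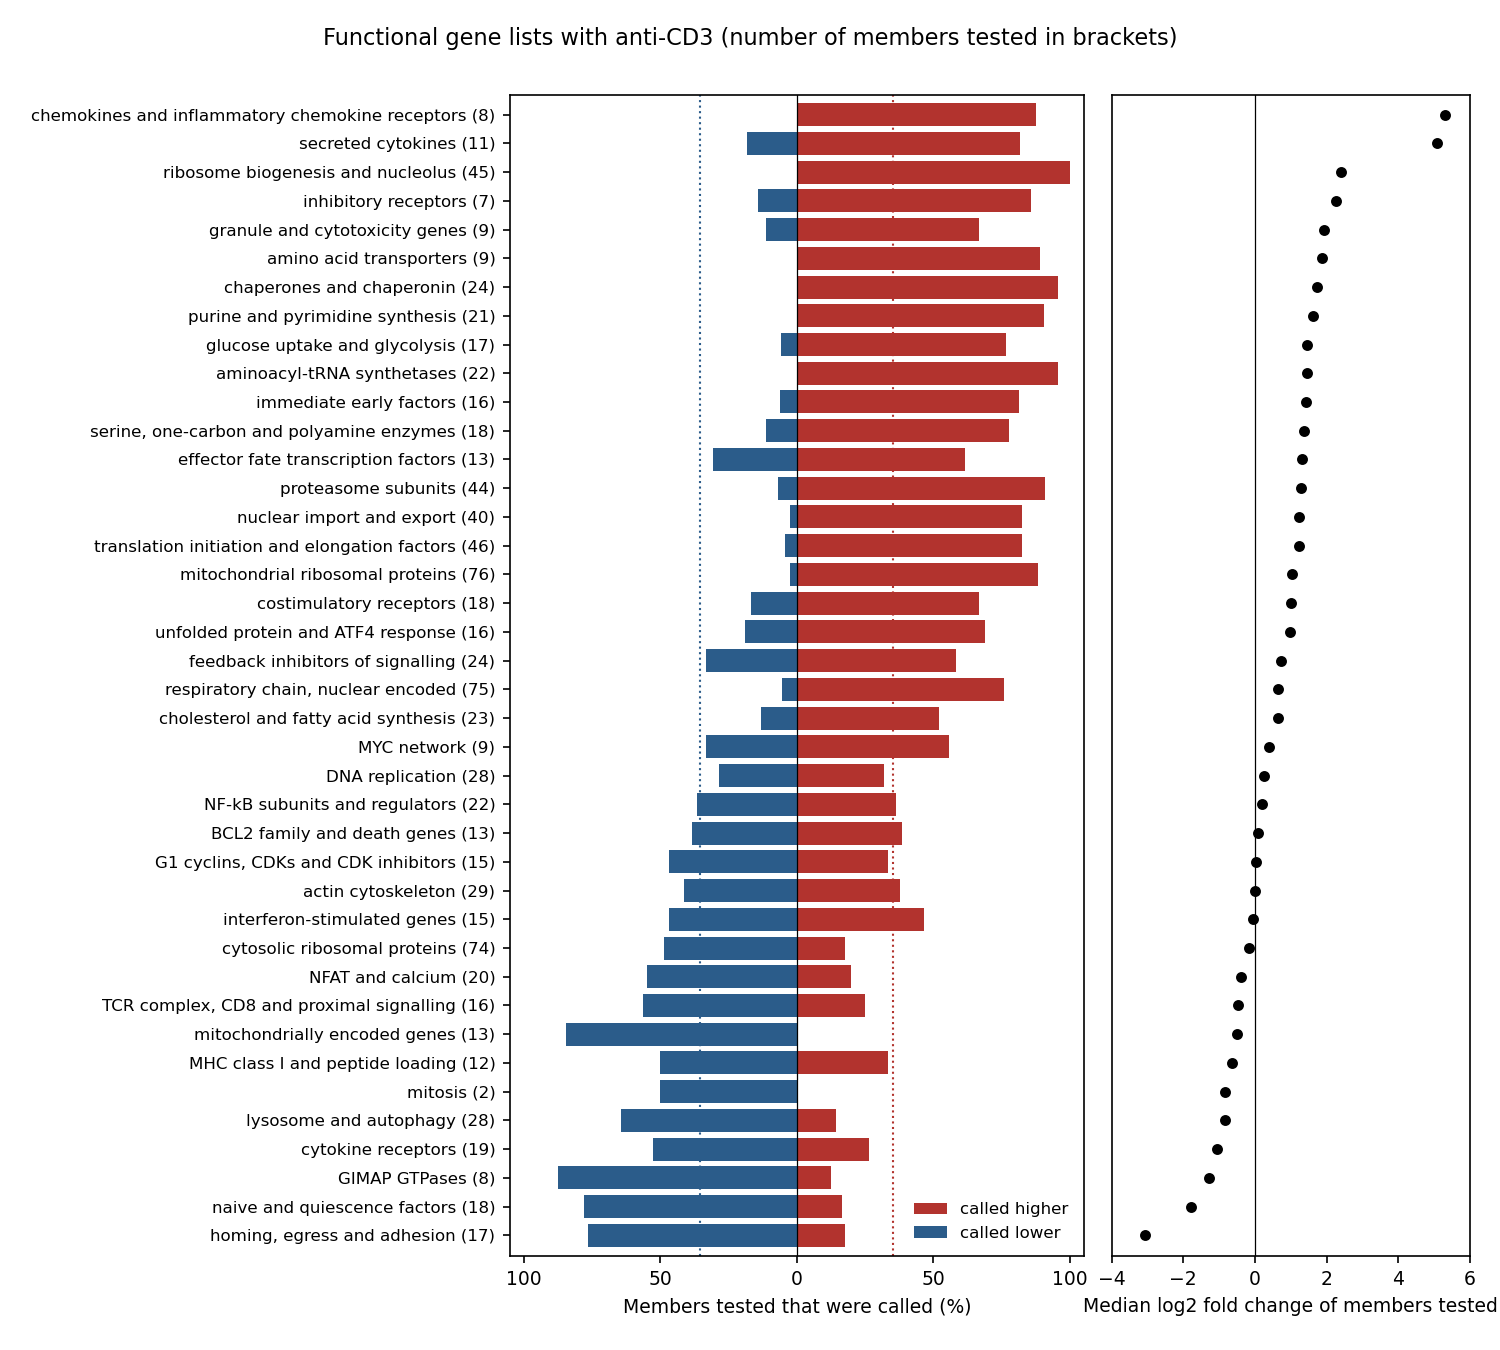
For each of 40 functional lists, bars show the share of tested members called higher (red) or lower (blue) with anti-CD3, and points the median log2 fold change of the members tested, with dotted lines at 35.1% and 35.6%, the shares of all genes tested called higher and lower. Chemokines and cytokines lie at the top with medians of 5.29 and 5.09, all 45 genes of ribosome biogenesis are called higher, and homing genes lie at the bottom with -3.07; the medians of G1 regulators, BCL2 family and actin genes lie next to 0 and change sign with the scaling of the libraries.

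Genes of the cell cycle did not move in 1 direction. Among 15 G1 cyclins, kinases and inhibitors tested, 5 were called higher (33.3%) and 7 lower (46.7%), against 35.1% and 35.6% of all genes tested, with a median of 0.03 that turned to -0.15 under upper quartile scaling. Ccnd2, the D-type cyclin of activated T cells, went from 146, 135 and 125 CPM to 914, 1182 and 959. The groups stood apart in every mouse (log2 fold change 2.90, SE 0.10, adjusted p = 5.1e-23). Its partner Cdk4 had 1.86 (SE 0.094). Of the CDK inhibitors, Cdkn1b, which encodes the p27 of resting cells, fell from 568, 639.6 and 602 CPM to 37.3, 39.4 and 48.5 (log2 fold change -3.85, SE 0.11, adjusted p = 3.4e-25), while Cdkn1a, which encodes p21, had 3.77 (SE 0.15). E2f2, of the E2F factors, was lower and had 1 count with anti-CD3, a ratio of 0.0139 (95% interval 0.000344 to 0.0828). Of 28 DNA replication genes, 9 were called higher (32.1%) and 8 lower (28.6%), both under the shares of all genes tested, and the median of 0.27 became -0.13 among genes with a mean count of at least 20 and -0.04 at equal depth. Pcna, the sliding clamp, had 1.25 (SE 0.096), and Mcm5, of the replicative helicase, 0.66 (SE 0.16), but Lig1, the ligase of lagging strands, had -1.95 (SE 0.34). The 18 mitosis genes summed to 82.5, 79.9 and 89.4 CPM without anti-CD3 and to 32.2, 37.5 and 36.4 with it. Most of this loss was Cenpa, the centromeric histone, which went from 57.4, 55.9 and 54.0 CPM to 14.3, 16.8 and 18.3 and was called lower, with -1.75 (SE 0.17). Of the others, 16 were too low to test and 1 was not called. Mki67, the gene of the proliferation marker Ki-67, had 2.35, 3.73 and 2.18 CPM without anti-CD3 and 0.896, 0.419 and 0.636 with it.

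Survival genes were called in both directions, in shares near those of all genes tested. Of 13 members of the BCL2 family and other death genes tested, 5 were called higher and 5 lower, 38.5% each, with a median of 0.09 that was -0.08 under upper quartile scaling. Bcl2l1, which encodes the survival protein BCL-XL, went from 8.05, 4.55 and 5.45 CPM to 69.6, 66.0 and 80.2, with the groups well apart (log2 fold change 3.53, SE 0.21, adjusted p = 1.2e-16). Cflar, an inhibitor of caspase-8, had 1.22 (SE 0.12). The proapoptotic genes Bad and Bcl2l11, which encodes BIM, had -2.23 (SE 0.45) and -1.01 (SE 0.11). Mcl1, another survival gene and the most abundant of the list, was not called, at 413, 390.0 and 407 CPM and then 475, 460.5 and 421.

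Genes of GIMAP GTPases and of lysosomes were mostly lower. Of 8 GIMAP GTPases, which support lymphocyte survival, 7 were called lower (87.5%, against 35.6% of all genes tested) and Gimap5 (0.82 (SE 0.15)) higher, with a median of -1.27; Gimap4 went from 438, 449.6 and 384 CPM to 119, 127 and 144. Lysosome and autophagy genes were called lower in 18 of 28 (64.3%), 13 by more than 2-fold, and higher in 4, with a median of -0.84. Of 12 genes of MHC class I and peptide loading, 6 were called lower (50%) and 4 higher (33.3%, near the 35.1% of all genes tested), with a median of -0.65. B2m and H2-K1, the parts of the class I molecule itself, had -0.62 (SE 0.072) and -0.76 (SE 0.073), whereas Canx, the chaperone calnexin, had 1.58 (SE 0.10). Interferon-stimulated genes divided 7 to 7 among 15 tested (46.7% each), with Gbp2 at 1.62 (SE 0.12) and Xaf1 at -3.19 (SE 0.56).

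Genes of the cytoskeleton were called in both directions, in shares not far from those of all genes tested. Of 29 actin cytoskeleton genes, 12 were called lower and 11 higher, or 41.4% and 37.9%, with a median of -0.01 that was -0.18 under upper quartile scaling. Their summed level was 25655, 25528 and 25414 CPM without anti-CD3 and 28535, 28516 and 27046 with it. Actb, the most abundant of them, went from 5217, 5537 and 4949 CPM to 7671, 8126 and 7369.9 (log2 fold change 0.56, SE 0.067, adjusted p = 4.0e-09). Vim, the intermediate filament protein vimentin, went the other way, from 51.7, 53.8 and 36.5 CPM to 1.79, 2.72 and 3.98. Its stimulated libraries were all far below the unstimulated ones (log2 fold change -3.95, SE 0.27, adjusted p = 3.3e-15). Lcp1, the actin bundler plastin of leukocytes, had 1.18 (SE 0.081) and Tmsb4x, the actin-binding thymosin β4, -0.82 (SE 0.073).

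The genes with the steepest changes outside these lists came from many functions. Sema7a, a semaphorin tied to the cell membrane by a lipid anchor, had 3 counts in the unstimulated libraries together and 216, 234 and 211 CPM with anti-CD3, a ratio of 529.7 (95% interval 181 to 2570.0). Crabp2, a carrier of retinoic acid, went from 1 unstimulated count to 26.3, 30.4 and 25.1 CPM, a ratio of 196 (95% interval 35.0 to 7771). At the other end stood Fam101b, an actin-regulating gene, at 159, 149 and 130.3 CPM without anti-CD3 and 1.79, 1.89 and 1.43 with it (log2 fold change -6.40, SE 0.20, adjusted p = 2.1e-24). Cd7, a surface receptor of T cells, went from 61.4, 65.4 and 52.9 CPM to 2.39, 1.26 and 1.43, and Rasa3, which switches off RAS and RAP1, from 299, 439.6 and 288 CPM to 14.6, 9.85 and 13.5. The groups were apart for each of these genes. Cdc25b, a phosphatase that activates the kinase of mitotic entry, Pde2a, which breaks down cyclic nucleotides, and Rapgef4, which activates RAP1, had log2 fold changes of -5.12 (SE 0.22), -5.00 (SE 0.18) and -5.25 (SE 0.37).

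Short sequence motifs of the promoters were counted as a description. RefSeq promoter windows of the GRCm38.p6 build, from 250 bases before to 50 bases after each gene start, were matched to 7052 of the 8690 genes tested. Windows were searched on both strands for CACGTG, the letters that MYC with MAX can bind, TGACTCA, those of AP-1, and TGACGTCA, those of CREB and ATF factors; no motif contains another. CACGTG was in 7.15% of all windows of the table, in 11% of windows of genes tested, in 14.7% for genes called higher by more than 2-fold and in 8.82% for those called lower by more than 2-fold. TGACTCA was in 5.20% of all windows, in 3.14% for genes tested, 2.95% for the higher and 3.30% for the lower genes. TGACGTCA was in 1.79% of all windows, in 3.47% for genes tested, 3.84% for the higher and 2.04% for the lower genes. In ribosome biogenesis, 9 of 41 windows (22%) held CACGTG. In other lists mostly called higher it was in 0 of 6 windows (chemokines), 0 of 13 (secreted cytokines) and 2 of 20 (10%, immediate early factors). TGACTCA was in 3 of 13 windows of secreted cytokines (23.1%) and 1 of 6 of chemokines (16.7%). It was in 0 of 20 windows of immediate early factors and 0 of 41 of ribosome biogenesis. These are small numbers of windows. A match shows letters, not a bound site. CACGTG was not limited to genes that rose: windows of Dgka, Lef1, Orai2, Mxd4, Lig1 and Psmb10, all called lower, hold it, and that of Lamp1, which was not called, holds it 4 times. TGACTCA was likewise in windows of Il16 and Xaf1, both called lower. The windows printed here are examples from genes called higher, first growth genes that hold CACGTG (capitals): Cdk4 at chr10:127063285-127063584 (plus strand) with 4 matches, Ldha at chr7:46845554-46845853 (plus strand), which holds TGACGTCA as well, Hspd1 at chr1:55088194-55088493 (minus strand) and Ran at chr5:129019906-129020205 (plus strand). Those of Tnfrsf9 at chr4:150927749-150928048 (plus strand), Gzmb at chr14:56262285-56262584 (minus strand) and Tnfsf14 at chr17:57194132-57194431 (minus strand) are immune genes called higher and hold TGACTCA in its reverse complement, TGAGTCA. All are written 5′ to 3′ along the gene.
Cdk4: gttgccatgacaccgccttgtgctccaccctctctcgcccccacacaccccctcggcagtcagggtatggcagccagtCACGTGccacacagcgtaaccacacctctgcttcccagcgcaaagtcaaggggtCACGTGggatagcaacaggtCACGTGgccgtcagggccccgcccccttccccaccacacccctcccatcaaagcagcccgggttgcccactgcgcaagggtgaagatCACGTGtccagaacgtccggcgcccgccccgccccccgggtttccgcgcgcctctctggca
Ldha: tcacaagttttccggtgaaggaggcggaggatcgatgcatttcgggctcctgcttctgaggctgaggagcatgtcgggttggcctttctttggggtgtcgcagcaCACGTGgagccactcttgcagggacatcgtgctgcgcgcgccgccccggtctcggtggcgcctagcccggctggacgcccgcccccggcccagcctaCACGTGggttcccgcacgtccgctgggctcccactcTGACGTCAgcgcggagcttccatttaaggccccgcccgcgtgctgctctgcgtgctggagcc
Hspd1: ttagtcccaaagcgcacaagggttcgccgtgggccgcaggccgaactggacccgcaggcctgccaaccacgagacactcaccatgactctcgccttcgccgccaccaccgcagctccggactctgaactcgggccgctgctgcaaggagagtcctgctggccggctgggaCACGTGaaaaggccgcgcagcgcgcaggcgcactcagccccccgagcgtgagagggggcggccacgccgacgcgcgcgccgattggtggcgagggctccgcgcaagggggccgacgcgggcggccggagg
Ran: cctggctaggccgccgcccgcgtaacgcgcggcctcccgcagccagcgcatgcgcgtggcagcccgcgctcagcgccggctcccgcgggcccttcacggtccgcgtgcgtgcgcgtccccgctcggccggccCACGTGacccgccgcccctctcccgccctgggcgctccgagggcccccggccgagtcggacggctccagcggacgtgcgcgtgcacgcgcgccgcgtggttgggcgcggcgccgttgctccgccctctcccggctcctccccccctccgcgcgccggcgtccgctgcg
Tnfrsf9: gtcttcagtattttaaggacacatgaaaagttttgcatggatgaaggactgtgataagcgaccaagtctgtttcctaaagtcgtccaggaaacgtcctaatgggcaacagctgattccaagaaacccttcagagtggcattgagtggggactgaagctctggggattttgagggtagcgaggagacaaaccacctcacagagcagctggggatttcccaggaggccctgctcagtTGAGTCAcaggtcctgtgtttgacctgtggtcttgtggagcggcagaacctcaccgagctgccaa
Gzmb: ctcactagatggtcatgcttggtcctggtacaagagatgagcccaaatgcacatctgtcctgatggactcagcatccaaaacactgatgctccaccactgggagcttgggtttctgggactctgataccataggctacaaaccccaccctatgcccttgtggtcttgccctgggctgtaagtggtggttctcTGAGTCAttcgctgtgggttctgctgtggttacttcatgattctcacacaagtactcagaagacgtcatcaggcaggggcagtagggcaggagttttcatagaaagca
Tnfsf14: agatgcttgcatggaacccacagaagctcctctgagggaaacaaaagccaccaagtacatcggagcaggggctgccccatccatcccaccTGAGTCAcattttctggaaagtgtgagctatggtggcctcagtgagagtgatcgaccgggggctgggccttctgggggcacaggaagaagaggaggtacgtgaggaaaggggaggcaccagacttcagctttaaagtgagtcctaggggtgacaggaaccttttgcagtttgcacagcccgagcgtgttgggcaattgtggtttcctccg

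The response was then set against the wells of the same mice with anti-LAIR-1, which share no library with the 6 above. Of the genes called with isotype, 6102 were tested there, and 6051 (99.2%) had the same direction. Among those changed by more than 2-fold, 3804 of 3812 kept their direction and 8 did not. The difference between the 2 responses was tested over all 12 libraries in edgeR as an interaction, and 218 of 9223 genes (2.36%) were called, 193 higher (2.09%) and 25 lower (0.271%) with anti-LAIR-1. Of the 218, 211 were also called with isotype. Since the difference is taken from the isotype response itself, the directions of the 2 are not set against each other. The number of genes called in this interaction dropped to 97, 78 and 93 without mouse 1, 2 or 3.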

How the data were processed

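Gene expression was measured by an adapted CEL-seq protocol in 12 libraries, 1 per mouse and condition, of which 6 carried this comparison. The deposited values are raw counts per gene symbol: the authors aligned reads to the mm10 transcriptome with BWA MEM, dropped reads that fit several places equally well, and counted the rest. Whether reads with 1 molecular identifier were collapsed is not stated in the methods, so that floors and intervals cover counting error alone.

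Counts were fitted in edgeR 4.0.16 (R 4.3.3, limma 3.58.1) with TMM normalization, filterByExpr, the mouse number as a block and the quasi-likelihood F-test. P-values were adjusted by Benjamini-Hochberg over all 8690 genes tested, and a gene was called at an adjusted p under 0.05. SE is the size of the log2 fold change over the square root of its F statistic, from 3 mice. The spread in that statistic is largely shared among genes, with 32.02 prior against 2 residual degrees of freedom. SE and p-values are therefore no measure of the spread of 3 mice alone. The fit was also run on 1 simulated data set, drawn without differences between mice and with fewer changed genes than here. There, false calls stayed within the rate of the threshold for the response to anti-CD3, but not for the interaction. Such a draw does not settle the rate of false calls in these data. The block follows the methods, in which the cells of each mouse were sorted and plated, and the mouse numbers in the sample titles. Once group means were taken out, the values of stimulated and unstimulated libraries of mice 1, 2 and 3 correlated across genes with r of 0.0493, 0.0344 and -0.00535, where genes are not independent replicates. Pairs of libraries from different mice ran from -0.0455 to 0.0157, a range that holds the value of mouse 3. Permuting 3 against 3 libraries without regard to the mouse has a smallest two-sided p of 0.1. Swapping labels within each of 3 mice, as the pairing asks, cannot go as low. No gene was tested either way. The interaction with anti-LAIR-1 was fitted in edgeR over all 12 libraries and adjusted over 9223 genes.

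Genes could be named if they were among the 15 called genes with the steepest rise or the 15 with the steepest fall. These were taken from genes with 1 direction in all 3 mice and a mean count of at least 30. Also eligible were the 8 most abundant called genes of each direction and 46 genes set by hand. The same held for the 3 most abundant members and the highest and lowest called member of each of 40 functional lists. Not every eligible gene is named, and no rule is given for the choice among them. Names outside this rule and the marker lists were chosen after their values were seen. Members and lists, among them lists of cell type markers, were chosen with earlier results of these data known. Lists are described by counts and medians, without a test. Members of the lists without counts in the table were not analysed here, and a few items are not reported here. Where no count was seen in a group, the fold was taken against a floor of 3 counts over the group; with 1 to 3 counts, a ratio of pooled counts with its exact 95% interval is given.

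Alternatives were no replicate block, DESeq2's size factors, the upper quartile or library size alone as scaling, DESeq2 1.42.0 (Wald test) with and without the block, no filter on low counts, a mean count of at least 20, libraries thinned to the smallest total, mitochondrial genes and Rn45s left out, each mouse left out, and all 12 libraries in 1 fit. Promoter windows are from RefSeq (GRCm38.p6).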

Additional observations from a re-analysis of the deposited data

Results flagged for a closer look

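The difference between the response with anti-LAIR-1 and the response with isotype, as the interaction in edgeR over all 12 libraries, was past an adjusted p of 0.05 for the genes given here, all from those set by hand for naming. These are log2 differences, the same 3 mice gave both responses, and the isotype libraries enter both the response and the difference, so the direction is not read. In the simulated data set, which was simpler than these data, the interaction made more false calls than its threshold allows. Klf2 (adjusted p = 0.0408) and Pik3ip1 (adjusted p = 0.0441) are close to the threshold. The difference was -1.53 for Ccl3, -1.15 for Ccl4, 0.50 for Cd3e, -1.90 for Cish, 1.14 for Il7r, 0.69 for Klf2, 0.64 for Lef1, 1.03 for Pik3ip1, 1.92 for S1pr1, 0.70 for Tcf7, 0.71 for Txnip and -0.74 for Xcl1. Of the 43 genes set by hand that are reported here and were tested in the interaction, these 12 were called and 31 were not. Over all genes tested in the interaction, 218 of 9223 (2.36%) were called. Genes set by hand are no random draw from these, so the shares are not compared.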

How the results depend on the processing

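Between 5212 and 6574 genes were called in the 14 alternatives, against 6138, and 84.9 to 99.7% of the 6138 were called again in each. Without the replicate block 6199 genes were called, 3065 higher and 3134 lower. Upper quartile scaling moved the median of all genes to -0.20 and library size alone to -0.11, from -0.02, so that changes near 0 depend on the scaling, and 42.4% of calls were higher under the upper quartile against 49.6%. The interaction with anti-LAIR-1 was called in 78 to 97 genes with 1 mouse left out, where fewer samples enter the fit, and in 191 to 290 in the 4 others run for it, against 218.

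Values that changed sign belonged to genes without a call and to the medians of 2 lists (0.41 for the MYC network, 0.27 for DNA replication), besides those of G1 regulators, BCL2 family and actin genes next to 0, and the cause was not tested. With no filter on low counts, Lamp1 became 0.0326, Cd28 0.0044 and the MYC network -0.17. Under upper quartile scaling, Ptprc became -0.0436 and Mcl1 -0.0103. Lamp1 became 0.0312 without mouse 1. Cd28 ran from -0.1569 without mouse 1 to 0.0116 without mouse 3. DNA replication became -0.13 with a mean count of at least 20 and -0.044 at equal depth. Some genes gained a call: Bach2, Cd28 and Lamp1 were called lower under upper quartile scaling, Ptprc and Mcl1 higher with no filter and with all 12 libraries, Ccl5 lower without mouse 3 and Cd74 higher without the block.

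Precision follows depth: 3 counts were 0.477 to 1.64 CPM, 5633 symbols were too low to test, and the stimulated libraries were the deeper ones. Levels are relative, the 3 mice are the only replicates, and 1 time point was sampled.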

Other observations

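Genes that no unstimulated library detected were of mixed function. Besides the cytokines, Il15ra and Tbx21, the 17 included Ak7, an adenylate kinase, at least 41.7-fold higher with anti-CD3, Bdh2, a dehydrogenase of ketone and iron metabolism, at least 32.8-fold, and 3 genes chosen after their values were seen. These were Cers6, a ceramide synthase, at 10.7, 10.3 and 8.27 CPM, Zbtb32, a repressor of lymphocyte genes, at 5.97, 10.1 and 10.7 CPM, and Nek6, a mitotic kinase, at 5.97, 11.7 and 8.91 CPM. All 3 were at 0 in each unstimulated library.

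The 5 transcripts with the highest mean CPM in the unstimulated cells were mt-Cytb, mt-Atp6, mt-Co2, mt-Rnr2 and mt-Nd4, all called lower with anti-CD3, although the call of mt-Rnr2 was lost in DESeq2 with the mouse as a block (adjusted p = 0.142, against 2.81e-13 to 0.0146 in the other alternatives). The 10 most abundant genes of a library held 18.7%, 17.3% and 19.1% of its counts without anti-CD3 and 13.2%, 12.9% and 13.3% with it. Mitochondrial genes together held 19.1%, 17.6% and 19.7% without and 12.5%, 11.5% and 12.3% with it.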
